A study of Mus musculus with 3 samples.

Results

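Pdcd1, Cd274 and Pdcd1lg2, the genes of the inhibitory receptor PD-1 and of its ligands PD-L1 and PD-L2, were followed through a mouse model of glioblastoma. The 3 genes were taken by name from the 50262 genes of the deposited count table. PD-1 sits on activated T cells. When it binds a ligand on a neighboring cell, its cytoplasmic tail recruits the phosphatase SHP-2, which dampens signaling from the T cell receptor and from CD28. PD-L1 is found on many hematopoietic and nonhematopoietic cells and is induced by interferon-gamma, whereas PD-L2 is largely restricted to dendritic cells and macrophages and is induced by interleukin-4 and interleukin-13.

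Tumors were initiated in adult mice by stereotactic injection into the striatum of a lentivirus encoding TGFa and iCre recombinase. All animals carried a conditional human EGFR transgene, were Cdkn2a-/-, and held a conditional luciferase reporter on a mixed strain background (Balb/cJ, SJL, FVBN/J, 129S4 and C57Bl/6J). Expression of the transgene is therefore limited to cells reached by the virus, whereas Cdkn2a is missing from every cell, leukocytes included. Brains were dissociated, live CD45+ and CD45- cells were sorted, and each fraction was encapsulated on the inDrop platform, whose reads are counted as unique molecular identifiers (UMIs). There was 1 tumor sample at each stage (early, medium and late, the last called large in the labels). The early sample was pooled from 2 animals, as fewer cells than wanted could be sorted, and the sources used here do not say whether the medium sample came from 1 animal. Each sample and sort was split into 4 libraries, which are technical repeats, and the 24 libraries were mixed over 3 sequencing runs that serve as the GEO samples. No tumor-free brain was analysed here.

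After filtering, 17781 of the 20811 deposited cells were kept, 11185 in the CD45+ sort and 6596 in the CD45- sort, with medians of 1997 and 2674 UMIs per cell. Cells of each sort were clustered without the 3 genes and without the 49 pathway genes described below, and clusters were named from marker lists. T cell-like clusters held Cd3e UMIs in 24.6% of cells against 0.401% of the other CD45+ cells, and microglia-like cells held P2ry12 UMIs in 90.3% against 21.9%. Macrophage or monocyte-like cells held Lyz2 in 92% against 33.7% and Ccr2 in 13.2% against 6.18%, but the monocyte marker Ly6c2 was not higher there (113 CPM against 133 in the other CD45+ cells). Clusters that met no list (7 of 65, 1532 cells) stayed unnamed. The 3 genes were sparse throughout, with 391, 1048 and 137 UMIs in the whole table. Of 280 cells with a Pdcd1 UMI 211 had only 1, as had 528 of 689 cells with Cd274 and 45 of 78 cells with Pdcd1lg2. A cell with 0 UMIs may therefore still express the gene, and levels are given below as CPM, the UMIs of a gene scaled to the summed UMIs of all genes in a group. Intervals for them are exact 95% Poisson intervals and those for shares of positive cells (at least 1 UMI) exact binomial ones, which cover counting error only. The same droplet barcode occurred in another kept cell for 45 of the 280 Pdcd1-positive cells, 132 of the 689 Cd274-positive cells and 10 of the 78 Pdcd1lg2-positive cells, and 16, 41 and 2 of these lay in the same sequencing run. The other cell was itself positive for only 4, 6 and 0 of them. The 20811 deposited cells carried 18335 distinct barcodes, of which 2117 occurred in more than 1 library. These are numbers of barcodes and not of cells, so they give no background for the positive cells above. Whether positive cells shared a barcode more often than other cells was not tested.

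In the GENCODE M21 annotation of GRCm38, Pdcd1 (ENSMUSG00000026285) occupies chr1:94038305-94052553 on the minus strand and no other gene overlaps it. Cd274 (ENSMUSG00000016496, chr19:29367455-29388095) and Pdcd1lg2 (ENSMUSG00000016498, chr19:29410919-29471161) lie side by side on the plus strand of chromosome 19, 22.8 kb apart with 0 coding genes between them. Jak2, a kinase of the interferon-gamma receptor, lies 54.4 kb upstream of Cd274 with 3 coding genes between. An antisense gene inside Cd274 has no counts of its own in the table. The 3′ end of Pdcd1lg2 is overlapped over 6412 bases by the antisense gene A930007I19Rik, which had 273 UMIs in the table. The sources used here do not say whether the strand was used in counting, so Pdcd1lg2 values are uncertain to that extent.

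The promoters, 250 bases before to 50 after the start site, are printed because the genes moved with different cell types in the comparisons below. They come from RefSeq (GRCm38.p6), run 5′ to 3′ on the strand of the gene, and all 3 genes were found in the table. Capitals mark matches to 6 short motifs searched on both strands. The Pdcd1 window is chr1:94052504-94052803, the Cd274 window chr19:29367188-29367487 and the Pdcd1lg2 window chr19:29410669-29410968.
Pdcd1: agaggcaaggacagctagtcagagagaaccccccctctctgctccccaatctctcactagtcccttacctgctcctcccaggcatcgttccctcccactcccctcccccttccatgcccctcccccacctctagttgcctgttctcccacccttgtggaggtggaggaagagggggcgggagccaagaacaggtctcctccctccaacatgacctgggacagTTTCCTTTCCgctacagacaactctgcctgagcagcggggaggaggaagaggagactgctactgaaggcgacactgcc
Cd274: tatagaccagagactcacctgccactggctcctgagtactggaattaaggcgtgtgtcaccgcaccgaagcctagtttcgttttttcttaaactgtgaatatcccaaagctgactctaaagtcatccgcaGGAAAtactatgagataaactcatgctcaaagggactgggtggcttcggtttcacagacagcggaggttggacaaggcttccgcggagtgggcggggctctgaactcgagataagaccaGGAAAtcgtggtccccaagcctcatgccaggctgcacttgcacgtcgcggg
Pdcd1lg2: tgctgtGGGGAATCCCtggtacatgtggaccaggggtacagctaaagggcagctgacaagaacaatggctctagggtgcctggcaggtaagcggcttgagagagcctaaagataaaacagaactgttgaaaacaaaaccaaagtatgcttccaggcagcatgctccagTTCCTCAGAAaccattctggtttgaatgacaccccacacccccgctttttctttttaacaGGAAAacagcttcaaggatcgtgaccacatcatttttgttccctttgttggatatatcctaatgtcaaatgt

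The core of NFAT sites (GGAAA, the factor that drives Pdcd1 after T cell receptor signaling) had 2 matches each in the Pdcd1 and Cd274 promoters and 1 in that of Pdcd1lg2, a motif that 61.3% of all 32851 promoters hold. The spacing bound by STAT6, the factor downstream of interleukin-4, had 1 match in the Pdcd1lg2 promoter, 82 bases before the start, and none in the others, against 6.95% of all promoters. That promoter also held 1 match to the NF-kB pattern, which 50.8% of promoters hold. The STAT dimer TTCNNNGAA (8.3% of promoters), the interferon-stimulated element (3.44%) and the AP-1 site TGANTCA (7.81%) had no match in these 3 windows. GC content was 60.7% in the Pdcd1 promoter, 52.7% in that of Cd274 and 46% in that of Pdcd1lg2. These are matches of letters in a short window and say nothing of binding.

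All 3 genes were higher in the CD45+ sort, but to very different extents. Pdcd1 was close to absent from CD45- cells, Cd274 was present in both sorts and Pdcd1lg2 was found in CD45+ cells alone. Sums over a sort cannot tell a change in the number of cells of a type from a change in RNA per cell.

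**Figure D1:**
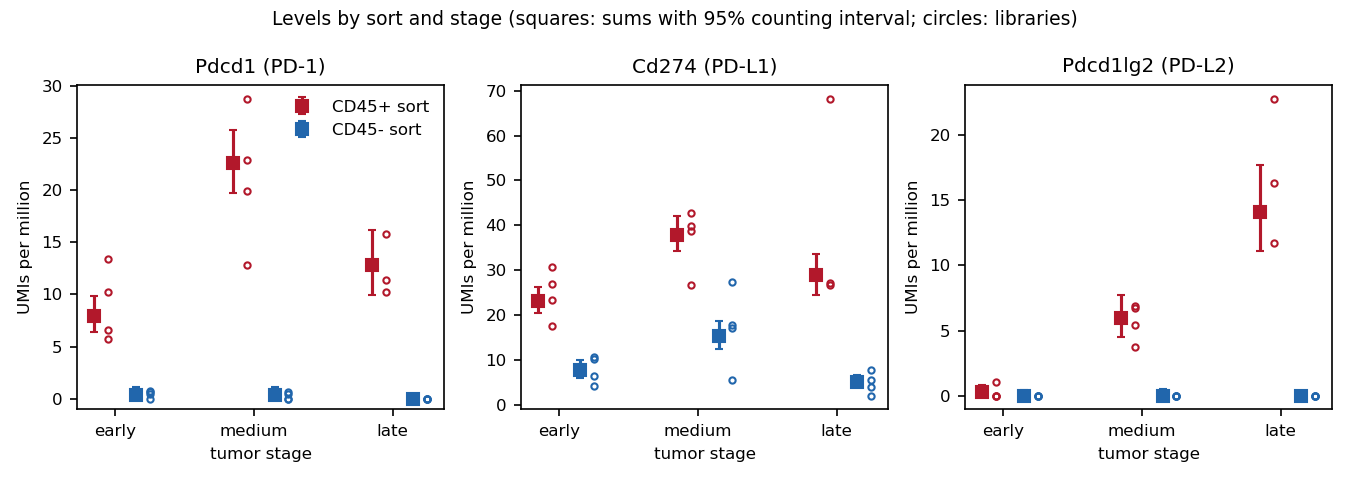
CPM of Pdcd1, Cd274 and Pdcd1lg2 in the CD45+ (red) and CD45- (blue) sorts of the early, medium and late tumor samples, with squares for the sums (exact 95% Poisson intervals) and circles for the technical libraries. Cd274 lay between 23.1 and 37.9 in the CD45+ sums and between 5.1 and 15.4 in the CD45- sums, while Pdcd1lg2 had no UMI in the CD45- sort.

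Pdcd1 in CD45+ cells stood at 7.96 CPM early, 22.6 at the medium stage and 12.8 late (86, 220 and 69 UMIs), against 0.37, 0.305 and 0 in the CD45- samples (3, 2 and 0 UMIs). The sorts did not overlap at any stage. Summed over stages, Pdcd1 was 73.1-fold higher in CD45+ cells (interval 31 to 226), and in the late sample, with 0 CD45- UMIs, at least 45.3-fold higher when 3 counts are taken as the floor. In edgeR's quasi-likelihood fit on the 6 sums with the tumor sample as a block, the difference was 6.29 on the log2 scale (SE 0.61, Benjamini-Hochberg adjusted p = 6.44e-05).

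Cd274 reached 23.1, 37.9 and 28.8 CPM in the CD45+ samples (250, 369 and 155 UMIs) and 7.78, 15.4 and 5.1 CPM in the CD45- samples (63, 101 and 54 UMIs). Every CD45+ sample lay above every CD45- sample, but by far less than for Pdcd1, with ratios of 2.97 (2.25 to 3.99), 2.46 (1.97 to 3.1) and 5.65 (4.12 to 7.85). The fitted difference was 2.10 (log2, SE 0.28, edgeR adjusted p = 0.000308).

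Pdcd1lg2 had 3, 58 and 76 UMIs in the CD45+ samples by stage (0.278, 5.96 and 14.1 CPM) and 0 of 25249375 UMIs in the CD45- sort, which allows up to 0.119 CPM. It was at least 44.5-fold higher in CD45+ cells. The 3 early UMIs all lay in 2 cells of 1 library. The call by edgeR (adjusted p = 0.000227) rests on a group at 0, so its fitted fold is not given. With these, 3 of 3 genes were called higher in CD45+ cells, where 16.9% of 23997 tested genes were called higher and 22.6% lower, a split that moved to 2996 higher and 7394 lower without TMM scaling (trimmed mean of M-values, which sets library sizes from genes that differ little). That change of scaling shifted the median log2 difference of all genes from -0.07 to -0.40 and left Pdcd1 at 5.96 and Cd274 at 1.77.

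Among CD45+ cells, Pdcd1 was concentrated in T cells. T cell-like cells were 3.95% of all kept cells and held 52.1% of Pdcd1 UMIs (198 of 380), at 126 CPM (109 to 145) and in 130 of 703 cells. Natural killer-like cells followed at 28.3 CPM from 5 UMIs. That class was not free of T cell transcripts. Cd3d, Cd3e, Cd3g, Trac and Trbc2 together stood at 554 CPM there, against 2383 in T cell-like cells, and were found in 40.9% of its Pdcd1-negative cells. All other named CD45+ classes lay at or below 14.6 CPM of Pdcd1. Of these, microglia-like cells reached 8.07 (6.52 to 9.87) and macrophage or monocyte-like cells 7.8 (5.47 to 10.8), which did not differ beyond counting error (ratio 0.967, 0.64 to 1.43). Of the 36 UMIs in macrophage or monocyte-like cells 9 lay in 1 cell.

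**Figure D2:**
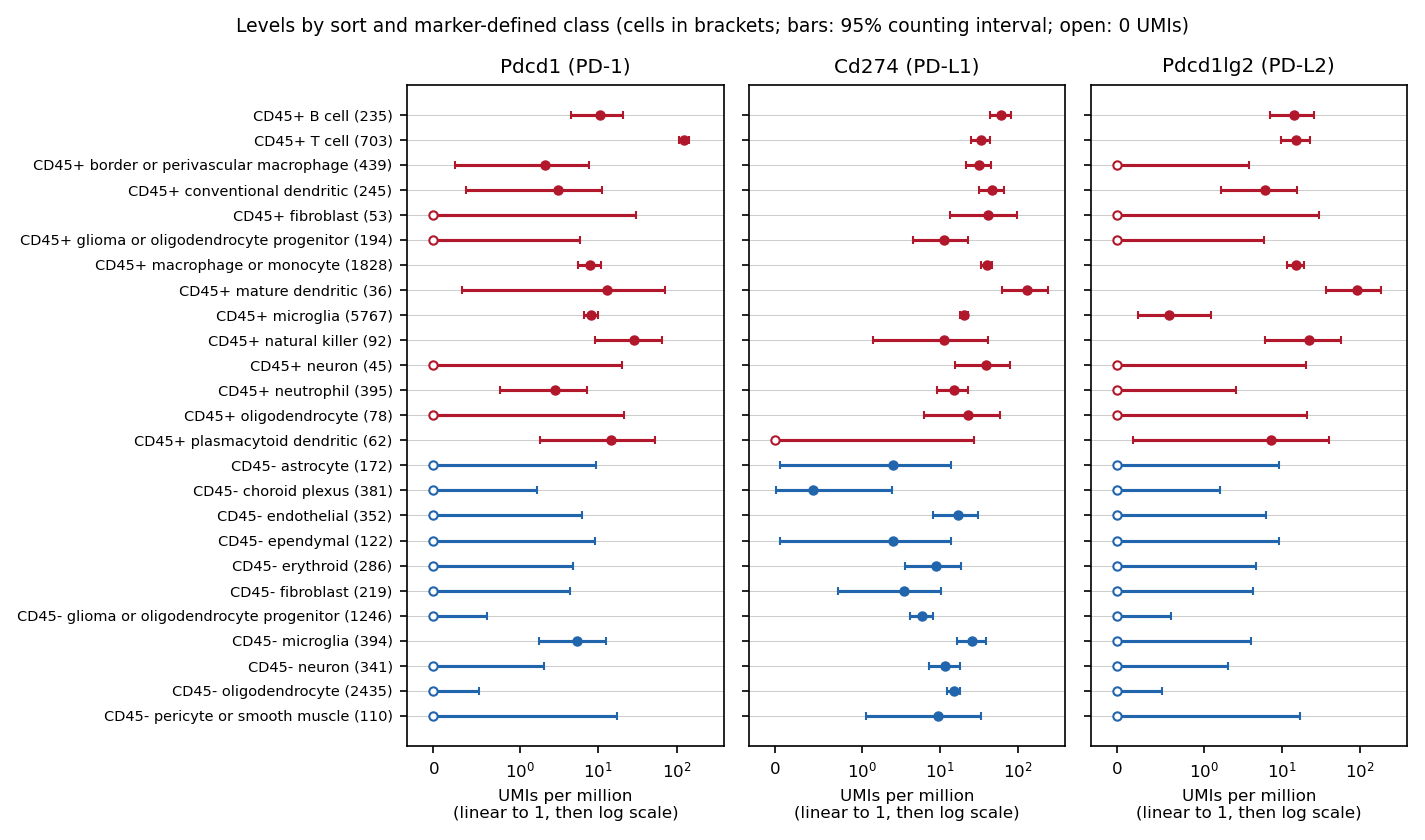
CPM of the 3 genes in the named classes of the CD45+ (red) and CD45- (blue) sorts over the 3 tumor samples, on an axis that is linear to 1 and logarithmic above, with exact 95% Poisson intervals and open circles for classes at 0 UMIs. The mast or basophil-like class had too few cells and is not shown. Pdcd1 stood at 126 in T cell-like cells and at or below 28.3 elsewhere, Cd274 was spread over most classes, and Pdcd1lg2 was highest in mature dendritic-like cells, at 90.6.

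In edgeR's fit on sums per tumor sample and class (7 CD45+ classes with at least 20 cells in every tumor sample), Pdcd1 was higher in T cell-like cells than in each of the other 6 classes. The difference was 3.30 (log2, SE 0.48, adjusted p = 9.86e-10) over microglia-like and 3.53 (SE 0.53, adjusted p = 6.07e-09) over macrophage or monocyte-like cells. Over border or perivascular macrophage-like, conventional dendritic-like and neutrophil-like cells, which had 2, 2 and 4 UMIs, it was 5.43, 5.17 and 5.32, and the CD45+ glioma or oligodendrocyte progenitor-like class had 0 UMIs. In these 6 comparisons 9.16%, 4.72%, 5.42%, 2.09%, 7.26% and 9.68% of 19597 genes were called higher on the T cell side, in the order given. The 2 other pairs called for Pdcd1, of 21 in all, set microglia-like cells (background 11.1%) and macrophage or monocyte-like cells (11.7%) above the glioma or oligodendrocyte progenitor-like class. Against the mean of the other classes, edgeR called Pdcd1 higher in T cell-like (5.43, SE 0.44, adjusted p = 6.33e-30, background 9.96%) and microglia-like cells (1.58, SE 0.60, adjusted p = 0.0485, background 14.5%). The mean behind the microglia-like call includes the classes with 0, 2, 2 and 4 UMIs, so it does not make Pdcd1 a trait of microglia-like cells. By pairs, they lay below T cell-like cells and were not called over macrophage or monocyte-like cells (0.23, SE 0.54, edgeR adjusted p = 0.878). Against that mean, Pdcd1 was called lower in the glioma or oligodendrocyte progenitor-like class (adjusted p = 0.0133, background 10.1%).

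Pdcd1 in T cell-like cells stood at 30.2 CPM early (17 UMIs in 15 of 262 cells), 193 at the medium stage (150 UMIs in 91 of 337 cells) and 132 late (31 UMIs in 24 of 104 cells). The medium sample was highest and the early sample lowest. The medium to early ratio was 6.41 (3.87 to 11.3) and the late to early ratio 4.37 (2.35 to 8.42), whereas medium and late did not differ beyond counting error (1.47, 0.99 to 2.23). With 1 tumor sample at each stage, no test between stages is possible, and stage cannot be told apart from animal.

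**Figure D3:**
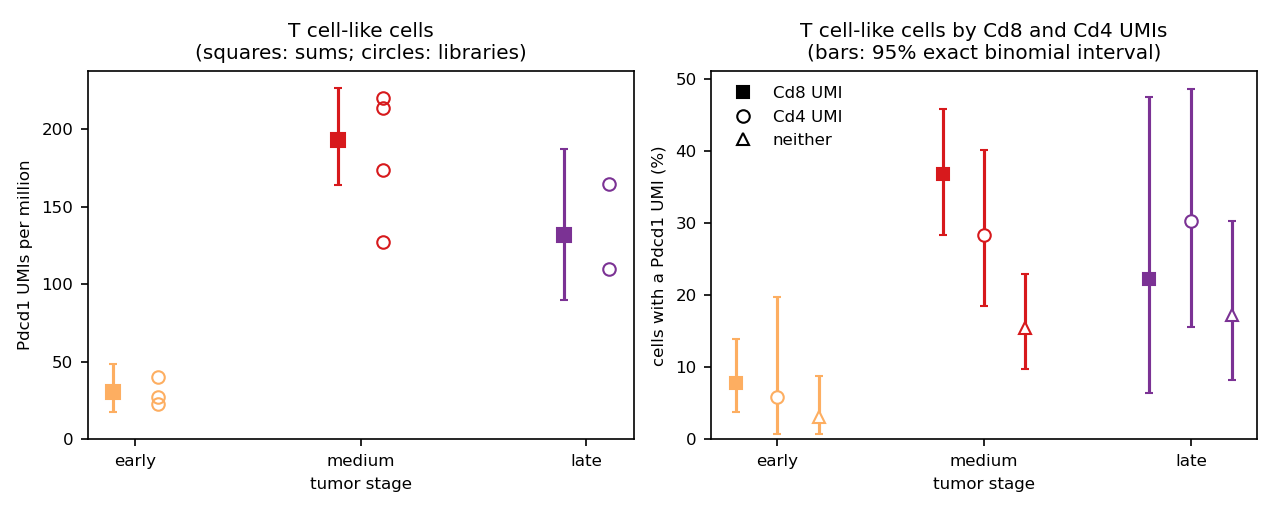
Pdcd1 in T cell-like cells by stage, on the left in CPM as sums (squares, exact 95% Poisson intervals) and in libraries with at least 20 such cells (circles), and on the right as the percent of cells with a Pdcd1 UMI among cells with a Cd8 UMI, a Cd4 UMI or neither (exact 95% binomial intervals). The early libraries lay between 22.8 and 39.8 and the medium and late ones between 110 and 220, without overlap, and in the medium sample 36.8% of the Cd8 cells were positive.

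The technical libraries of a sample were alike. Those with at least 20 T cell-like cells gave 22.8 to 39.8 CPM early, 127 to 220 at the medium stage and 110 to 165 late, and early and later libraries did not overlap within a sequencing run either (39.8 early against 190 medium and 165 late in run 2, and 24.8 against 220 and 110 in run 3). The share of Pdcd1-positive T cell-like cells was 5.73% (3.24 to 9.27) early, 27% (22.3 to 32.1) medium and 23.1% (15.4 to 32.4) late. After thinning each cell to 1000 UMIs these shares were 4.51%, 17.6% and 10.2%. As a background from the same libraries, CD45+ cells other than T cell-like ones were positive in 1.26%, 1.34% and 1.74% by stage (1.38% in all), at a median of 2002 UMIs against 1910 in T cell-like cells.

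Outside T cell-like cells no difference in Pdcd1 between stages was detectable. CD45+ cells other than T cell-like ones held 6.73, 7.82 and 7.38 CPM, with a medium to early ratio of 1.16 (0.82 to 1.64). T cell-like over microglia-like cells, the ratio was 4.17 early (2.28 to 7.26), 15.4 at the medium stage (9.55 to 26.4) and 16.3 late (8.66 to 32).

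T cell-like cells were split by coreceptor UMIs into 271 with Cd8a or Cd8b1 and no Cd4, 141 with Cd4 only, 13 with both and 278 with neither. Pdcd1 in the Cd8 cells was 41.6 CPM early, 307 medium and 148 late (12, 89 and 5 UMIs), and in the Cd4 cells 30.8, 171 and 145 (2, 29 and 14 UMIs). Both sets were lowest in the early sample. In the medium sample Cd8 cells stood above Cd4 cells by 1.79-fold (1.17 to 2.83), while over all stages the ratio was 1.27 (0.89 to 1.85). The 29 T cell-like cells with a UMI of Foxp3, the master regulator of regulatory T cells, had 46.8 CPM from 4 UMIs (12.7 to 120).

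The late sample held a T cell-like cluster led by Il13, Areg, Ccl1, Gata3 and Il4, genes of type 2 responses, with 40 of its 45 cells from that sample. None of its 10 leading genes was a CD3 or T cell receptor gene, but 7 T cell markers passed. Cd3d, Cd3e, Cd3g, Trac or Trbc2 was found in 86.7% of its cells against 94.4% of the main T cell-like cluster (658 cells), at 2122 CPM against 2403 for the 5 genes together. Cd4 had 243 CPM there against 185, and Cd8a had 0 UMIs (up to 33.2 CPM by the exact interval) against 356. Pdcd1 in this cluster stood at 185 CPM in the late sample (19 UMIs) against 90.9 in the late cells of the main T cell-like cluster (12 UMIs), a ratio of 2.03 (0.936 to 4.59) that counting error spans. The late level of T cell-like cells thus rests on this cluster for 19 of 31 UMIs. In the main cluster alone the levels were 28.7, 194 and 90.9 CPM, so the late sample then lay below the medium one (medium to late 2.14, 1.19 to 4.23) and above the early one (late to early 3.17, 1.37 to 7.15).

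Pdcd1 outside T cells was examined further because its UMIs there are many in sum. Microglia-like CD45+ cells held 94 UMIs in 82 of 5767 cells (1.42%, 1.13 to 1.76, and 0.836% after thinning). Only 4 of these 82 cells (4.88%, 1.34 to 12) had a UMI of a T cell receptor or CD3 gene, against 2.55% of microglia-like cells without Pdcd1. In T cell-like cells, which were named in part from these genes, 125 of 130 positive cells had one, against 93.4% of negative cells.

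**Figure D4:**
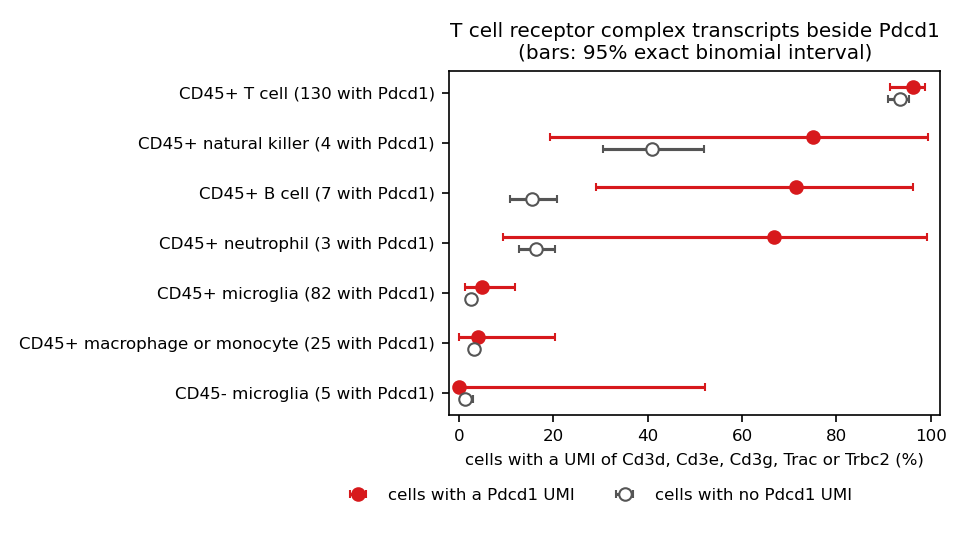
Percent of cells with a UMI of Cd3d, Cd3e, Cd3g, Trac or Trbc2 among cells with (filled) and without (open) a Pdcd1 UMI in 7 classes, with exact 95% binomial intervals. The share was 96.2% among Pdcd1-positive and 93.4% among Pdcd1-negative T cell-like cells. It was 4.88% among positive CD45+ microglia-like cells and 4% among positive macrophage or monocyte-like cells.

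Per 100 UMIs of T cell receptor and CD3 genes, Pdcd1 had 5.28 UMIs in T cell-like cells and a like number in natural killer-like (5.1), B cell-like (6.61) and neutrophil-like cells (3.28). Conventional dendritic-like (4.88) and border or perivascular macrophage-like cells (4) were near it too, each from 2 Pdcd1 UMIs. The ratio was 47.7 in microglia-like cells (94 against 197 UMIs). It was 46.2 in macrophage or monocyte-like cells (36 against 78 UMIs, with 9 of the 36 in 1 cell). Unnamed CD45+ clusters lay between, at 18 (23 against 128 UMIs), and plasmacytoid dendritic-like (20) and mature dendritic-like cells (50) had 2 and 1 Pdcd1 UMIs. In the macrophage or monocyte-like class and in microglia-like cells Pdcd1 was thus not in the proportion to these genes seen in T cell-like cells, and the source of these UMIs was not tested. The ratios have a limit, as the mix of these genes differed between cells. Cd3d and Cd3e had 475 and 237 UMIs in T cell-like cells but 329 and 57 in the other CD45+ cells. In the CD45- sort Cd3d had 88 UMIs, against 0 of Cd3e, 4 of Cd3g, 3 of Trac and 4 of Trbc2. In the CD45- sort, all 5 Pdcd1 UMIs lay in microglia-like cells (5 of 394 cells, 5.41 CPM, 1.76 to 12.6), of which 0 had a T cell receptor or CD3 UMI. The remaining 6202 CD45- cells had none.

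Cd274 was broadly distributed among leukocytes. Summed over stages, it was highest in mature dendritic-like cells, which migrate to lymph nodes and present antigen, at 129 CPM (62.1 to 238, 10 UMIs in 36 cells). B cell-like (60.1, 44 to 80.2), conventional dendritic-like (46.3, 31.2 to 66), macrophage or monocyte-like (39.5, 33.9 to 45.6), T cell-like (33.7, 25.2 to 44.1) and border or perivascular macrophage-like cells (31.4, 21.2 to 44.8) followed with overlapping intervals, classes of 7 or fewer UMIs and the unnamed clusters (50.4 CPM) left aside. Microglia-like cells lay below these at 20.3 (17.8 to 23), overlapping the last of them, and neutrophil-like cells at 14.9 (9.2 to 22.7, 21 UMIs). The neutrophil-like value pools unlike clusters. A cluster of 84 cells had 50.4 CPM (21.7 to 99.2), from 8 UMIs of which 4 lay in 1 cell. The others had 9.09, 14.9 and 7.28 CPM. The order is pooled over stages, and 207 of the 235 B cell-like and 32 of the 36 mature dendritic-like cells came from the medium sample. Because microglia-like cells were by far the most numerous, they nevertheless held 23.8% of all Cd274 UMIs and macrophage or monocyte-like cells 18.3%.

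In macrophage or monocyte-like cells Cd274 was 47.6 CPM early, 42.2 at the medium stage and 34.5 late (20, 95 and 67 UMIs), and in microglia-like cells 20.5, 23.7 and 16.7 (167, 36 and 33 UMIs). The macrophages lay above the microglia in each of the 3 tumor samples, by 2.32-fold (1.38 to 3.7), 1.78-fold (1.2 to 2.69) and 2.07-fold (1.34 to 3.24), and the values of the classes did not overlap. Over the tumor samples, however, edgeR's log2 difference of 1.09 (SE 0.42) was not called at an adjusted p of 0.0913, where 4.53% of genes were called higher. Against the mean of the other 6 classes it was 1.01 (SE 0.34, adjusted p = 0.0376, background 7.18%), and that call was lost when any of the 3 tumor samples was left out (adjusted p of 0.103 to 0.449), without TMM scaling (0.268) and in a fit without the tumor block (0.0869).

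The other calls for Cd274 set leukocytes above the CD45+ glioma or oligodendrocyte progenitor-like cells, which had 11.1 CPM from 7 UMIs. These were lower than the mean of the other classes by -1.86 (log2, SE 0.61, edgeR adjusted p = 0.0127, against 10.1% of genes called lower). By pairs, 3 of 21 were called, namely macrophage or monocyte-like (2.46, SE 0.65, adjusted p = 0.00139), conventional dendritic-like (2.48, SE 0.71, adjusted p = 0.00506, background 8.82%) and T cell-like cells (1.97, SE 0.69, adjusted p = 0.0251) over that class. Over all pairs, a median of 12.1% of genes was called in either direction (1.62% to 22.5%).

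**Figure D5:**
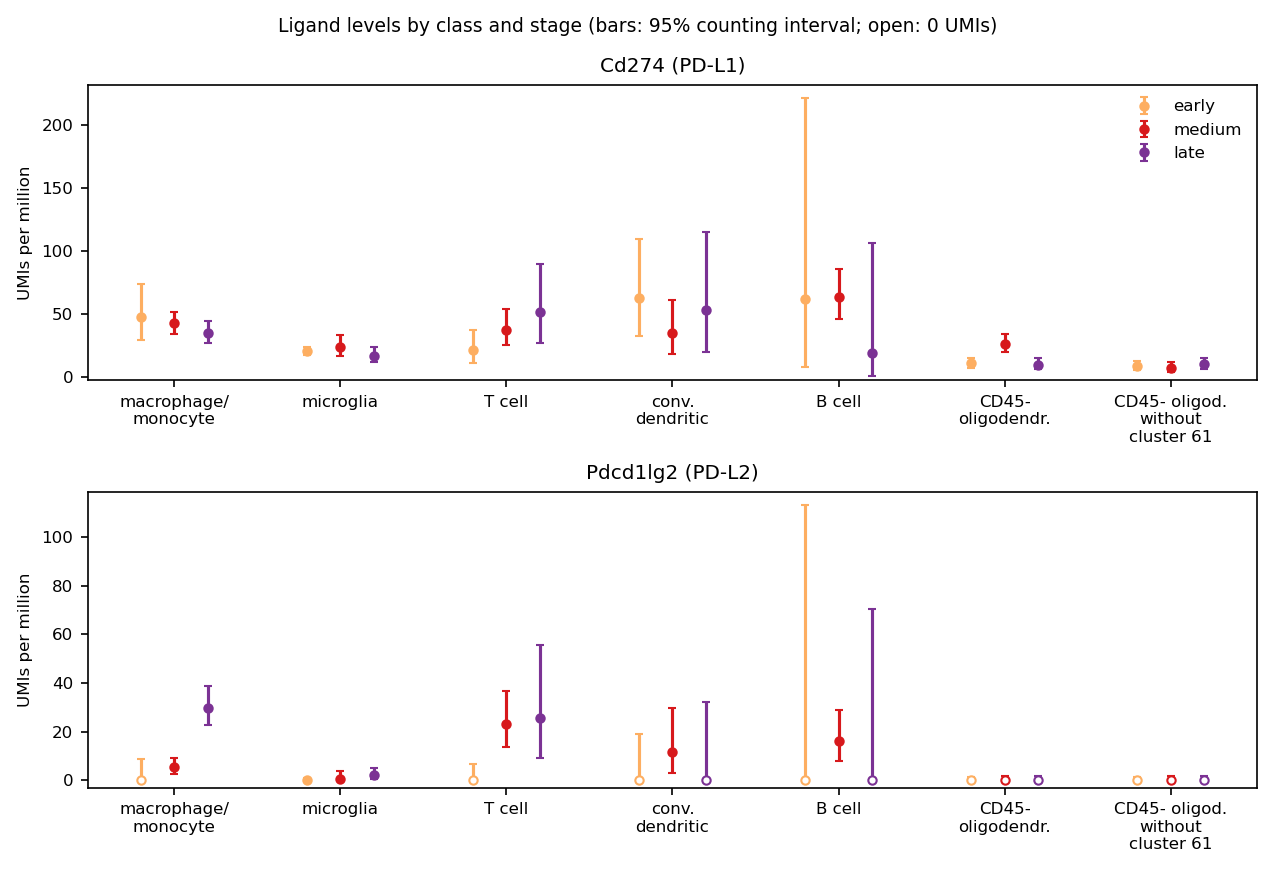
Cd274 (top) and Pdcd1lg2 (bottom) by class and stage in CPM with exact 95% Poisson intervals and open circles for 0 UMIs, where cluster 61 is the small oligodendrocyte-like cluster with most of its cells from the medium sample. Pdcd1lg2 in macrophage or monocyte-like cells was 0 early, 5.33 at the medium stage and 29.9 late, while Cd274 there was 47.6, 42.2 and 34.5.

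By stage, Cd274 in T cell-like cells was 21.3, 37.4 and 51.1 CPM (12, 29 and 12 UMIs), and the intervals of all 3 ratios between stages included 1. The same held for macrophage or monocyte-like, microglia-like, B cell-like and conventional dendritic-like cells. Clusters of the macrophage or monocyte-like class, unequally shared between stages, were less even. The one led by Spp1, Gpnmb and Arg1 had 71.3 CPM early (39.9 to 118), 23.9 medium (11.5 to 44) and 41.4 late (31.2 to 53.8). The one led by Ly6i, Ms4a4c and Ccr2 had 16.8 early (2.04 to 60.8) and 69.9 medium (47.8 to 98.6). The early and medium intervals overlapped in both, but overlap of separate intervals does not exclude a difference. Ratios between stages, used for the classes, were not computed for these clusters. In border or perivascular macrophage-like cells the medium sample stood above the early one (2.43, 1.09 to 5.49) and the late one (8.57, 1.33 to 359), from 13, 16 and 1 UMIs by stage. In neutrophil-like cells the late sample, with 5 UMIs in 27 cells, had ratios of 5.31 (1.51 to 15.4) to the medium one and 9.44 (1.06 to 446) to the early one, but 4 of these 5 UMIs lay in 1 cell. Its cells also lay in other clusters than the medium ones, of which 94 were in a cluster led by Ngp and Camp (2 late cells) and 67 in one led by Elane and Mpo (0 late cells), so no difference between stages is read from them. For the CD45+ sort as a whole the medium sample exceeded the early one by 1.64-fold (1.39 to 1.93). An unnamed CD45+ cluster of 402 cells, 343 of them from the medium sample, had 93.9 CPM (75.2 to 116, 87 UMIs), and its leading genes Rsad2, Oasl1, Cxcl9 and Isg15 are interferon-stimulated. Without this cluster the medium to early ratio was 1.51 (1.27 to 1.79). In the late CD45+ sample, a library of 17 cells left aside, 1 library of 91 cells gave 68.1 CPM, while the larger ones gave 26.7 and 27.1, and the sum without it was 26.8.

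In the CD45- sort Cd274 was found in 151 of 6596 cells. Levels were 26 CPM in microglia-like (16.6 to 38.6), 16.8 in endothelial-like (8.07 to 30.9), 15 in oligodendrocyte-like (12.2 to 18.1) and 5.88 in glioma or oligodendrocyte progenitor-like cells (4.1 to 8.18). Of the 10 endothelial-like UMIs 5 lay in 1 cell. The unnamed clusters, nearly all late, had 1.98 (0.856 to 3.9). Glioma or oligodendrocyte progenitor-like cells thus lay below CD45- microglia-like cells, with intervals that did not overlap. Their gap to oligodendrocyte-like cells rested on the cluster described next, without which the latter had 8.25 CPM (6.23 to 10.7). Within the glioma or oligodendrocyte progenitor-like class the values were 2.1, 9.16 and 3.71 CPM (1, 23 and 11 UMIs) by stage.

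A cluster, numbered 61, of 72 CD45- oligodendrocyte-like cells, 54 from the medium sample, held 49 of the 218 CD45- UMIs of Cd274. Its level of 213 CPM (157 to 281) was 25.8-fold that of the other oligodendrocyte-like cells (17.2 to 38.5). The UMIs lay in 11 cells, with 15 in one and 9 in each of a further pair, and without the top cell the cluster still had 150 CPM. These 11 cells had no UMI of Ptprc, the gene of CD45, none of human EGFR, and 210 CPM of microglia markers against 244 in oligodendrocyte-like cells outside the cluster. The other 61 cells of the cluster carried human EGFR in 16.4% of cells (350 CPM, against 2.8 outside the cluster) and microglia markers at 472 CPM. Ptprc was absent from these 61 cells too, and even CD45- microglia-like cells had it in only 21.8% of cells. Zeros in 11 cells therefore decide little, and the origin of these cells was not tested. Irf1, a factor induced by interferon-gamma, stood at 180 CPM in the 11 Cd274-positive cells (in 1 of them), 50.7 in the other 61 and 1.91 outside the cluster, whereas Jak2, the neighbor of Cd274, had 30.1, 40.6 and 47.1 CPM in these sets. The genes that marked the cluster included Igtp and Irgm2, which are induced by interferon. Cd274 was not used in clustering, but the cells were compared after their Cd274 was seen, so no test is given. Without the cluster the medium CD45- level was 9.1 in place of 15.4 CPM, and the medium to early ratio 1.29 (0.877 to 1.89) in place of 1.98 (1.43 to 2.76).

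Pdcd1lg2 was the rarest of the 3, and its UMIs lay in 9 named CD45+ classes and the unnamed clusters (8 UMIs). Mature dendritic-like cells had 90.6 CPM (36.4 to 187, 7 UMIs), natural killer-like cells 22.6 (4 UMIs), T cell-like cells 15.3 (9.77 to 22.7, 24 UMIs), macrophage or monocyte-like cells 15.2 (11.8 to 19.2, 70 UMIs) and B cell-like cells 14.4 (7.18 to 25.7, 11 UMIs). From natural killer-like to B cell-like cells the intervals of neighbors in this order overlapped, but the order is pooled over stages in which classes have unequal shares. In the medium sample alone T cell-like cells (23.2, 13.8 to 36.7) lay above macrophage or monocyte-like cells (5.33, 2.75 to 9.31) without overlap. Of the 18 T cell-like UMIs there, however, 6 lay in 1 cell that had both Cd4 and Cd8 UMIs. The gap rests in part on that cell, which a counting interval does not take into account. Of the 11 B cell-like UMIs 9 came from 1 library, and 4 of the 11 lay in 1 cell. Conventional dendritic-like cells had 6.17 CPM (4 UMIs), plasmacytoid dendritic-like and mast or basophil-like cells 1 UMI each, and microglia-like cells 7 UMIs in 5767 cells (0.601 CPM), whereas border or perivascular macrophage-like and neutrophil-like cells had 0.

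In macrophage or monocyte-like cells, which held 51.1% of all Pdcd1lg2 UMIs, the gene went from 0 of 420483 UMIs early (up to 7.13 CPM) to 5.33 CPM at the medium stage (12 UMIs in 5 of 1021 cells) and 29.9 late (58 UMIs in 28 of 637 cells). Of the 12 medium UMIs 10 lay in 3 cells of a single library, 5 of them in 1 cell. Different clusters made up the class at each stage. Of the medium cells 668 lay in a cluster led by H2-Aa, Cxcl9 and Cd74, 203 in one led by Ly6i, Ms4a4c and Ccr2 and 149 in one led by Spp1, Gpnmb and Arg1, while the last of these held 411 of the late and 75 of the early cells. Within that Spp1-led cluster Pdcd1lg2 had 0 UMIs early (up to 17.5 CPM by the exact interval), 0 medium (up to 8.83) and 28 late (21.1 CPM, 14 to 30.4). Over the whole class the late sample was highest, 5.6-fold above the medium one (2.98 to 11.5) and at least 4.19-fold above the early one. Late positive cells were 4.4% (2.94 to 6.29), and 2.53% after thinning, against 0.304% of late microglia-like cells (3 of 988) at medians of 2716 and 1812 UMIs. A cluster led by Rnase2a, Retnla, Ear2 and Arg1, of which Retnla and Arg1 mark alternatively activated macrophages, came almost wholly from the late sample (185 of 191 cells) and had 52.3 CPM (34.8 to 75.6). Without it, the late level was 21.1 CPM and the late to medium ratio 3.96 (1.97 to 8.48).

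T cell-like cells went from 0 UMIs early to 23.2 CPM at the medium stage (18 UMIs in 12 cells, 6 of them in 1 cell) and 25.5 late (6 UMIs in 6 cells), which were alike within counting error. In edgeR's fit Pdcd1lg2 was called in 7 of 21 pairs. It was higher in macrophage or monocyte-like than in microglia-like cells (3.02, log2, SE 0.81, adjusted p = 0.00461) and in T cell-like than in microglia-like cells (3.43, SE 0.84, adjusted p = 0.000628). The others set the same classes above neutrophil-like (background 9.12% for the macrophages) and glioma or oligodendrocyte progenitor-like cells, and T cell-like above border or perivascular macrophage-like cells, all classes with 0 UMIs. Neither call over microglia held with DESeq2 (adjusted p of 0.543 and 0.39), without the tumor block (0.0934 and 0.0642) or without the late tumor sample (0.652 and 0.0671), and the T cell call was also lost without the medium sample (0.157).

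Cells with UMIs of a pair of these genes were rare. In the CD45+ sort 19 of 275 Pdcd1-positive cells also had Cd274 (6.91%, against 4.76% of Pdcd1-negative ones) and 9 had Pdcd1lg2 (3.27% against 0.632%). Of 128 Cd274-positive macrophage or monocyte-like cells 4 also had Pdcd1lg2 (3.12%, against 1.71% of Cd274-negative ones), and 8 of 130 Pdcd1-positive T cell-like cells had Cd274 (6.15% against 5.58%) and 6 had Pdcd1lg2 (4.62% against 2.09%). Among microglia-like cells 6 of 82 with Pdcd1 had Cd274 (7.32% against 3.1%), and among B cell-like cells 3 of 7 (42.9% against 8.77%). These shares depend on depth, which was higher in positive cells, and were not tested.

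Genes that accompany Pdcd1 in T cells were sought by comparing the 130 positive with the 573 negative T cell-like cells, summed per tumor sample. No gene was called higher and 13 of 10978 were called lower (0% and 0.118%, edgeR, adjusted p under 0.05), with 486 genes at an unadjusted p under 0.05 and 0 higher and 9 lower by DESeq2. The 10 of lowest p among those lower in positive cells were Apoe (-2.57, SE 0.31, adjusted p = 6.47e-13), Hmox1 (-4.53), Cst3 (-1.57), the complement genes C1qa, C1qb and C1qc, the colony-stimulating factor receptor Csf1r (-1.75), the fractalkine receptor Cx3cr1 (-1.67), Ctsd and Ccl4. Microglia markers moved with them, at 984 CPM in positive and 2298 in negative cells, and lower in positive cells in each of the 3 tumor samples. Their part in the result was not tested. Without the late tumor sample 0 genes were called. Positive cells were slightly deeper (median 2115 against 1884 UMIs).

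Among T cell-like cells with no microglia marker UMI, in the medium and late samples, 5 of 6907 genes were called higher in Pdcd1-positive cells and 2 lower. Those higher were Il13 (1.83, SE 0.38, edgeR adjusted p = 0.00391), a type 2 cytokine, Nr4a3 (1.48, SE 0.36, adjusted p = 0.0433), a factor induced by T cell receptor signaling, Ptgds, Igkc and Rgs2, and Apoe and Ly6c2 were lower. Il13 had 0 UMIs in medium T cell-like cells, so its call rests on the late sample alone, where 15 of 40 cells of the type 2 cluster and 9 of 64 cells of the main T cell-like cluster were Pdcd1-positive. Over all T cell-like cells, B cell markers stood at 848 CPM in positive against 362 in negative cells of the medium sample, but at 27.6 against 140 early and 31.5 against 99.3 late (597 against 232 in all). Their part in the call of the immunoglobulin gene Igkc was not tested. This selection was made after the values were seen. For Cd274 in macrophage or monocyte-like cells, 128 positive against 1700 negative, 3 genes were called higher and 2 lower of 13584 (0.0221% and 0.0147%). Each of the 3 higher genes (Ctsk and the mast cell proteases Mcpt2 and Mcpt1) came from 1 positive cell, with 55, 58 and 42 UMIs, and markers of mast cells or basophils stood at 96.9 CPM in positive against 2.36 in negative cells, whose part in the result was not tested. The lower ones were the lysozymes Lyz2 (-0.87, SE 0.19, adjusted p = 0.0153) and Lyz1 (-0.90, SE 0.21, adjusted p = 0.0392). DESeq2 called 0 genes, with 201 at an unadjusted p under 0.05, and leaving out 1 tumor sample gave 1 to 16 calls. The lysozyme calls were lost when any of the 3 tumor samples was left out.

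The pathway around the 3 genes was read from lists of 49 genes. In PD-1's proximal signaling, which joins the phosphatases to the receptor complex, 7 of 10 genes were called higher in the CD45+ sort and 2 lower (median 4.46, log2, against -0.07 for all genes, of which 16.9% were called higher and 22.6% lower). Lck, the kinase that opens T cell receptor signaling (6.51), Lat, its adaptor (7.53), and the costimulatory receptor Cd28 (8.03) led, and Prkcq (-1.94) and Ptpn11, the gene of SHP-2 (-0.92), were lower, the latter not called without the early sample (adjusted p = 0.0856). In T cell-like cells over the other classes 7 of 10 were called higher (background 9.96%), with Lat (6.65) and Lck (5.87) among those of lowest p.

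Among 14 regulators of Pdcd1 and of exhaustion, 9 were called higher in CD45+ cells (Nr4a3, Batf and Irf4 first, where 16.9% of all genes were) and 10 higher in T cell-like cells (Tcf7, Tox and Tbx21 first, where 9.96% were), with none lower in either. Tox, which holds exhausted T cells in their state, was 21.3 CPM in early, 218 in medium and 25.5 in late T cell-like cells, while Pdcd1 was 30.2, 193 and 132. Of 7 other inhibitory receptors of T cells, 5 were called higher in CD45+ (16.9% of all genes) and 4 in T cell-like cells (9.96%). Ctla4 led in T cell-like cells (7.32, log2, SE 0.47), with 72.8, 120 and 204 CPM by stage, and with 73.4, 120 and 68.2 in the main T cell-like cluster alone. In macrophage or monocyte-like cells over the other classes, 3 were called higher (against 7.18% of all genes), namely Havcr2 (1.45), Lag3 (1.37) and Entpd1 (0.75), and all 3 calls were lost without the late tumor sample. The same genes were called higher in microglia-like cells over the other classes (2.31, 2.56 and 2.32, against 14.5% of all genes), where their levels were 175, 93.9 and 342 CPM against 95.6, 49.2 and 116 in macrophages.

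Of 8 genes of the interferon-gamma route to the ligands, 7 were called higher in CD45+ cells (against 16.9% of all genes), and 3 in T cell-like cells (against 9.96%), where the cytokine Ifng itself had 302, 480 and 102 CPM by stage (299, 482 and 182 in the main cluster alone). In macrophage or monocyte-like cells Ifngr2, a chain of its receptor, was called higher (1.41, log2, SE 0.24, edgeR adjusted p = 2.6e-07), as it was in microglia-like cells (1.10, against 14.5% of all genes), along with Ifngr1 (1.22) and Irf1 (1.14). Stat6 of the interleukin-4 route (1.04) and Rela (1.22) were also called higher in microglia-like cells. Of 4 genes of the interleukin-4 route, 3 were called higher in CD45+ cells (Il4ra, Stat6 and Il13) and 2 in T cell-like cells (Il13 and Il4), against the same 16.9% and 9.96%. The call of Il13 between the sorts was lost without the late tumor sample (edgeR adjusted p = 0.0626), without the tumor block (0.131) and with DESeq2 (0.144), and that in T cell-like cells without the block (0.0777) and with DESeq2 (0.191). The call of Il4 was lost without the late sample (0.0587). Il13 stood at 12.4, 0 and 1128 CPM and Il4 at 5.33, 3.87 and 221 CPM in T cell-like cells by stage, so that both were highest in the sample where Pdcd1lg2 was highest in macrophages. These late values rest on the Il13-led cluster, with 260 UMIs of Il13 and 50 of Il4, whereas the late cells of the main T cell-like cluster had 5 (37.9 CPM) and 2 (15.2 CPM). With 1 sample at each stage this is a description, and whether they are linked was not tested. Of Cd80 and Rgmb, other partners of the ligands, Cd80 was called higher in CD45+ cells (2.27), and of the PD-L1 stabilizers Cmtm6 and Cmtm4 it was Cmtm6 (2.72), 1 of 2 in each list against 16.9% of all genes. In microglia-like cells Rgmb (2.01), Cmtm6 (2.17) and Cmtm4 (2.16) were called higher, against 14.5%. Both genes of the NF-kB route were called higher in CD45+ cells (16.9% of all genes), and Nfkb1 also in T cell-like cells (0.87, against 9.96%). In Pdcd1-positive T cell-like cells and in Cd274-positive macrophage or monocyte-like cells, 0 genes of these lists that could be tested were called, although Il13 and Nr4a3 are among them and were called in the T cell-like cells without microglia markers.

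Likeness of pattern was measured as Pearson's r of log2(CPM + 1) over 23 groups of sort and class with at least 50 cells, among 18572 genes. The groups share libraries and differ in depth, so no p is given. Mature dendritic-like cells (36 cells), where both ligands were highest, fell below the minimum and were left out. For Pdcd1lg2 the highest group was then the natural killer-like cells, with 4 UMIs, and every CD45- group stood at 0. Closest to Pdcd1 were Cd69, Cxcr6 and Cd3e (each 0.91), Gpr18 and Slamf6 (0.89). Among the 5 genes closest to Pdcd1lg2 were Gpr18 (0.9), Itgb7 (0.88), Cd69 and Rpl14 (0.85), and closest to Cd274 were Gm40264 (0.81), Relb (0.79), St8sia6 (0.78), Nup214 and Nr6a1 (0.76). Without its highest group, r of the first gene of each list was 0.94, 0.87 and 0.81.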

How the data were processed

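Single cells of 3 tumor samples (early, medium, late), sorted as CD45+ or CD45-, were measured by inDrop in 24 libraries. Per the labels and the study's methods, the authors counted UMIs with RapMap in bcbio-nextgen on the GRCm38 transcriptome (mm10 in the processing notes) with transgenes added and called cells against empty droplets. They deposited these counts as whole numbers per gene and cell. The study describes ambient RNA removal and doublet calling, but the sources do not say whether either preceded the deposited table. Free RNA or doublets can add UMIs of a gene to cells that do not express it. Sort and stage came from the library barcodes in the column names and the deposited table of libraries.

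Cells with at least 500 UMIs, 500 genes and at most 20% mitochondrial UMIs were kept, and 113 cells called by Scrublet (0.635%) were removed. Cells were clustered per sort (scanpy 1.11.5, leidenalg 0.10.2, 2000 variable genes, 40 components, 20 neighbors, resolution 2), without the 3 genes and the lists. Clusters were named from at least 3 markers (2-fold and in 10% of cells). Levels are CPM with 95% exact intervals, shares were repeated after thinning to 1000 UMIs, and the floor for a count of 0 was 3 counts. Sums per tumor sample were tested two-sided with edgeR 4.0.16 (quasi-likelihood, TMM, R 4.3.3, tumor sample as block), over genes with at least 10 UMIs, with Benjamini-Hochberg adjustment at 0.05. Sums hold 25919211 UMIs in the CD45+ and 25249375 in the CD45- sort. The sorts of a tumor sample come from the same animals, and their deviations correlated (r of 0.44, 0.30 and 0.34 across 11346 genes, against -0.33 to 0.07 otherwise). On simulated data 90.5% (sorts), 92.5% (classes), 51.5% (beside Pdcd1) and 90.5% (beside Cd274) of 4-fold changes were recovered. The changed genes were drawn from those with an expected count of at least 3 in the smallest sum. Outside the fit of sorts the 3 genes lay below that, so these rates do not cover genes as sparse as they are. Alternatives included DESeq2 1.42.0, other filters and scaling, no block and leaving out each tumor sample. Named were the 3 genes, at most 3 members of a pathway list per direction and comparison, and at most 10 genes per direction between positive and negative cells, each by the lowest p among those past the threshold. For likeness, the 5 genes of highest correlation were named. The 3 genes, the lists and the comparisons were chosen with earlier results of these data known. Some genes and alleles that these rules would name are not reported here.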

Additional observations from a re-analysis of the deposited data

How the results depend on the processing

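The calls of Pdcd1, Cd274 and Pdcd1lg2 between sorts and of Pdcd1 in T cell-like over microglia-like cells stood under every alternative that gave a value. Of 128 values from tests, 96 were unchanged. For a fitted difference this means the same direction and call, and for a number of genes called a like number. The size of a fitted difference was not compared. Of 80 levels 66 lay within the counting interval of the main value. Without the tumor sample as a replicate block, Pdcd1lg2 was 4.02 (T cell-like over microglia-like, log2) and 4.06 (macrophage over microglia), no longer called, Cd274 in macrophages over the other classes 0.99, and genes called beside Pdcd1 numbered 8 in place of 13. With DESeq2 Pdcd1lg2 was 3.62 and 3.26 (not called), Cd274 in macrophages over microglia 1.06 (called, as with every deposited cell at 1.16), and genes called beside Cd274 0 in place of 5. Leaving out 1 tumor sample gave Pdcd1lg2 of 2.55 to 4.12 and 1.57 to 3.58, Cd274 over the other classes of 0.78 to 1.06, and 0 to 18 and 1 to 16 genes called beside Pdcd1 and Cd274. Cd274 in macrophages over the other classes was not called without TMM (0.73), with filterByExpr (0.82), without the top 5% of doublet scores (0.97) or with classes set per cell (1.06). Genes called beside Pdcd1 were 20 with Scrublet's calls kept, 7 in cells with no microglia marker UMI, where Cx3cr1 turned to 0.77, 0 with classes set per cell and 1 after thinning. Those beside Cd274 were 0 with filterByExpr, 29 with every deposited cell, 10 with Scrublet's calls kept, 3 without the top 5% and 15 after thinning. Classes set per cell gave medium T cell-like cells 256 CPM of Pdcd1. Thinned shares were 17.6% and 10.2% (Pdcd1, T cell-like, medium and late), 3.82% and 3.8% (Cd274, macrophages) and 2.53% (Pdcd1lg2, late macrophages). By sequencing run, Cd274 in macrophages was 21 CPM (early, run 2), 101 (late, run 1) and 22.6 (late, run 3), Pdcd1lg2 1.89 (medium, run 3), and CD45- Cd274 10.1 (early, run 1) and 1.95 (late, run 2). Without single clusters, late Pdcd1lg2 in macrophages was 21.1 and medium CD45- Cd274 9.1. Where a cause is not given by the construction of an alternative, the cause was not tested. filterByExpr removed Pdcd1lg2. The alternatives on doublet scores, microglia markers and single clusters were chosen after seeing the data. With 1 tumor sample at each stage and few UMIs for each gene, small differences between stages or classes were not detectable.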
